A study of Mus musculus with 6 samples.

Results

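Dusp12, Nit1, F11r and Dusp23 are 4 of the 22180 genes measured in the liver of ErbB4-/- and control mice. They were picked by small p-values in an earlier comparison of the same 6 arrays, from the genes of distal chromosome 1 that belong to neither the Ifi200 family nor the Fc receptors. The comparison that chose them is therefore described for them with no test. All 4 were found, each by the probe set with 1 gene symbol and the highest mean.

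The control group was 3 wild type C57BL/6J mice. The other group was 3 mice with a full ErbB4 mutation, named ErbB4-/-HER4heart, whose death as embryos is prevented by a transgene that overexpresses ErbB4 in the heart, and whose line was backcrossed to C57BL/6J for more than 15 generations. The comparison is thus between lines that differ in the ErbB4 mutation and in the heart transgene. Both groups received DEN (diethylnitrosamine, a liver carcinogen) on postnatal day 14, and nothing in the labels describes a liver without DEN. The week of dissection is labelled as 32 for control replicate 1, 33 for 2 and 34 for 3, and as 35 for ErbB4-/- replicate 1, 36 for 2 and 37 for 3, although the treatment protocol reads 32 weeks for all 6. Week and genotype then cannot be told apart except through the weeks within a group. The labels give neither the sex of the mice nor whether tumour tissue was taken or avoided.

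Each mouse was read on 1 whole-transcript array, and the deposited values are log2 signals, so a difference of 1 is a doubling. The array medians lay between 4.83 and 4.86. Hepatocyte markers gave a log2 summed level of 16.76 to 16.81 in control and 16.70 to 16.76 in ErbB4-/- liver, the highest of 12 marker lists, and no marker was at 0. Some arrays stood apart from the rest. Control replicate 1 had a summed level of 12.77 for male-biased liver genes against 14.88 to 15.25 on the other arrays, and of 13.18 for female-biased ones against 9.74 to 10.19. ErbB4-/- replicate 3 scored 33.4 on the first principal component against -21.5 to 5.4 elsewhere. The targeted gene, Erbb4, measured 5.42, 5.73 and 5.42 in control and 4.75, 5.36 and 5.61 in ErbB4-/- liver. These groups overlapped, and what part of the transcript the probe set reads was not examined.

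The 4 genes have unrelated tasks. Dusp12 and Dusp23 encode atypical dual-specificity phosphatases, which remove phosphate from tyrosine as well as from serine and threonine and lack the kinase-docking region of the MAP kinase phosphatases. Dusp23 is little more than the catalytic domain, while Dusp12 carries a zinc-binding tail. Nit1 encodes a nitrilase-like amidase that clears deaminated glutathione, a faulty by-product of transaminases that are abundant in liver. F11r encodes junctional adhesion molecule A, an immunoglobulin-type protein of tight junctions between epithelial and endothelial cells that is also found on platelets and leukocytes. In hepatocytes tight junctions seal the bile canaliculi.

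The stretch of sequence before each start site is shown because 3 of these genes had lower values in ErbB4-/- liver and 1 had higher ones. The 250 bases upstream of the start come from RefSeq (GRCm38.p6), 5′ to 3′ on the gene's own strand, with 1 entry for each of the 4 genes. Capitals mark matches on either strand to the CCAAT box (CCAAT, or ATTGG on the other strand) and the GC box (GGGCGG, or CCGCCC). No match to the TATA box letters (TATAAA, or TTTATA) was found in any of the 4 windows. No marked matches overlap.
Dusp12 (chr1:170885541-170885790, minus strand): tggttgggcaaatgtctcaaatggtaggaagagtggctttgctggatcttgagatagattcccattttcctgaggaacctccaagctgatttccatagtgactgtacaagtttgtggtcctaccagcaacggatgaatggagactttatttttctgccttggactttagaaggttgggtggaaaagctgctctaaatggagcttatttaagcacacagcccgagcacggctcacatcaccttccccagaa
Nit1 (chr1:171345646-171345895, minus strand): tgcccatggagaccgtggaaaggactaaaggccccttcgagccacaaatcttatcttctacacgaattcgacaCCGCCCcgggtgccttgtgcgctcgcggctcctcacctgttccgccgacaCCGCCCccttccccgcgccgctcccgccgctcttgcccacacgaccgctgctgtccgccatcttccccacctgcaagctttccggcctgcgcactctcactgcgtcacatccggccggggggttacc
F11r (chr1:171437311-171437560, plus strand): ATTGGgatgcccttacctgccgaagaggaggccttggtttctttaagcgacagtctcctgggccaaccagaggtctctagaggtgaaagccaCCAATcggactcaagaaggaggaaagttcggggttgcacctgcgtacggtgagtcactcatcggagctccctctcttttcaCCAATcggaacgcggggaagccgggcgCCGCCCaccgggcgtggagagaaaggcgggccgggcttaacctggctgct
Dusp23 (chr1:172632975-172633224, minus strand): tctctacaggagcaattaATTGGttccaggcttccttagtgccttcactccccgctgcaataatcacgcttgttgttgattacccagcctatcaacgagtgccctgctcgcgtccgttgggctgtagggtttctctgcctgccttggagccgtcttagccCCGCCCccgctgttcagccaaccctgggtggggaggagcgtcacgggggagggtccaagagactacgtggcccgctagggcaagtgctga

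F11r, the gene with higher values in ErbB4-/- liver, held CCAAT letters at 250, 158 and 77 bases and GC box letters at 50 bases before the start. Dusp23 held CCAAT letters at 232 and GC box letters at 90 bases. Nit1 held GC box letters at 177 and 127 bases and no CCAAT, and Dusp12 held neither. Among 32851 windows of the same length in the promoter table, 33.8% had a CCAAT match, 32.7% a GC box match and 12.4% a TATA box match. The windows of Nit1, F11r and Dusp23 were 65.6%, 60.0% and 59.2% G or C, and that of Dusp12 was 46.0%, against a median of 52.4% over all windows. F11r and Dusp23 carried the same kinds of match, with differences on opposite sides of 0. Whether any of these matches takes part in expression was not tested.

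Dusp23 had the widest separation of the 4 genes. The control arrays read 6.87, 7.04 and 6.73 and the ErbB4-/- arrays 6.01, 6.00 and 5.99, here and below in the order of replicates 1, 2 and 3. Every ErbB4-/- array was below every control array, with a gap of 0.72 between the nearest values. The ErbB4-/- values lay within 0.02 of each other, whereas the controls spanned 0.31. The means were 6.88 ± 0.16 and 6.00 ± 0.01 (SD, n = 3 each), a log2 difference of -0.88 (SE 0.09), or 1.84-fold lower. Of the 22180 genes, 179 had a larger absolute difference.

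Dusp12, the other phosphatase, was lower by less. It measured 7.48, 7.25 and 7.32 in control and 7.05, 6.79 and 6.89 in ErbB4-/- liver. The groups did not overlap, but the gap of 0.20 was smaller than the range within either group, 0.23 in control and 0.26 in ErbB4-/- liver. The means were 7.35 ± 0.12 and 6.91 ± 0.13 (n = 3 each), a difference of -0.44 (SE 0.10), or 1.36-fold lower. A larger absolute difference was found in 795 genes.

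Dusp12 is the only 1 of the 4 genes with a further probe set of its own. That probe set read 4.53, 4.74 and 4.74 in control and 4.98, 4.74 and 4.74 in ErbB4-/- liver, near the array median. The same value of 4.74 was deposited for 4 of the 6 arrays, and the difference of 0.15 had the opposite sign. The mean of both probe sets gave -0.15 in place of -0.44, so the size of the Dusp12 difference rests on the brighter probe set.

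Nit1 showed the smallest difference and the tightest replicates. Control arrays read 9.89, 9.89 and 9.85, and ErbB4-/- arrays read 9.69, 9.68 and 9.65. Again no value overlapped, and the gap of 0.15 was about 3 times the range within a group, which was 0.05 in control and 0.04 in ErbB4-/- liver. The means were 9.88 ± 0.03 and 9.68 ± 0.02 (n = 3 each), a difference of -0.20 (SE 0.05), or 1.15-fold lower. As many as 4221 genes differed by more, so Nit1 stands out by its even replicates and not by its size.

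Nit1 was also lower at each later labelled week, from week 32 to week 37, counting the undisplayed digits of the first values. This order was seen in 28 genes, or 0.126% of all, and it was noticed after the values were seen. It requires every ErbB4-/- value to lie below every control value, which held for 846 genes. In Nit1 that follows from how the gene was chosen, so the share over all genes does not measure how unusual Nit1 is. Dusp12 and Dusp23 did not show the order, and F11r, with higher values, could not. Nit1 overlaps Dedd and Pfdn2 in the RefSeq annotation, and a probe set assigned jointly to Nit1 and Dedd was not used. Pfdn2, a subunit of the prefoldin chaperone, measured 7.68 ± 0.07 and 7.60 ± 0.18, a difference of -0.08, with overlapping groups.

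F11r was the gene with higher values. It measured 9.06, 8.72 and 8.91 in control and 9.41, 9.39 and 9.67 in ErbB4-/- liver. The lowest ErbB4-/- value lay 0.34 above the highest control value, as far as the controls lay from each other (0.34). The means were 8.90 ± 0.17 and 9.49 ± 0.16 (n = 3 each), a difference of 0.60 (SE 0.12), or 1.51-fold higher. A larger absolute difference was found in 410 genes. ErbB4-/- replicate 3, which stood apart on the first component, was the highest of the 6, and without it the difference was 0.50.

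**Figure D1:**
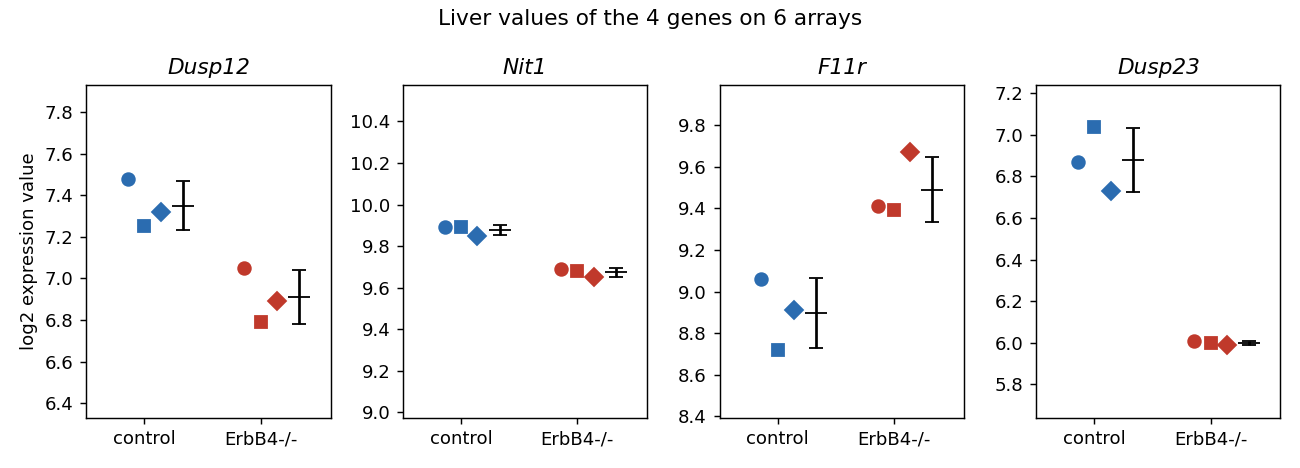
Log2 expression value of each gene (vertical axis, all panels spanning the same number of log2 units) in control and ErbB4-/- liver (horizontal axis). Circles, squares and diamonds are replicates 1, 2 and 3, and the bar is the mean with its SD (n = 3); no panel shows overlap, and Dusp23 has the widest gap, 0.72.

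All 4 genes were free of overlap between the groups, which follows from how they were chosen. Over all genes, 3.81% were lower and 4.52% higher without overlap. At an unadjusted p under 0.05, 2.94% of genes were lower and 2.77% higher, 5.72% in all. After Benjamini-Hochberg adjustment 1 gene passed, none of these 4, a share of 0.00451% (limma).

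The differences kept their direction in all 64 combinations of the 4 genes with 16 other processing settings. Most of these could not have changed it. Testing every probe set, leaving out dim genes, other priors and the replicate block leave the differences as they are. Leaving out or weighting arrays cannot reverse groups without overlap, which follows from how the genes were chosen. Without control replicate 1 and ErbB4-/- replicate 3 together the differences were -0.88 for Dusp23, -0.37 for Dusp12, -0.18 for Nit1 and 0.59 for F11r. With the labelled week as a covariate they were -0.75, -0.20, -0.13 and 0.51 in the same order. In proportion, the week moved Dusp12 and Nit1 most.

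**Figure D2:**
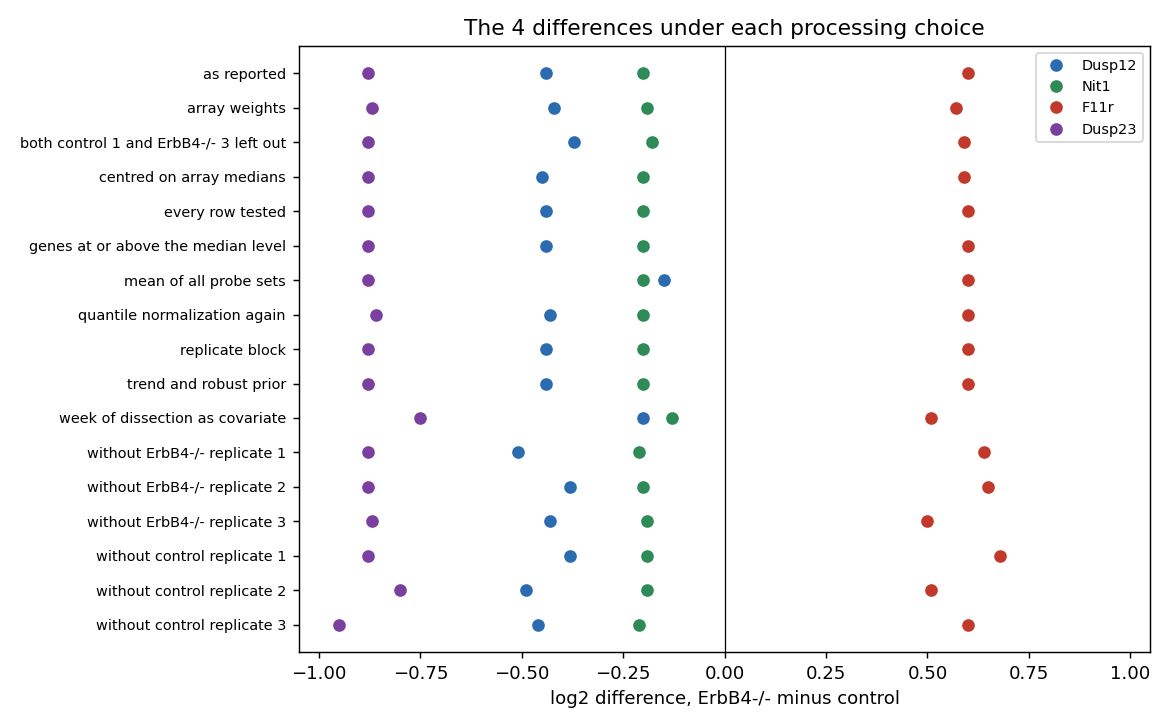
Log2 difference, ErbB4-/- minus control (horizontal axis), of each gene as reported and under each of 16 other settings (vertical axis). No point crosses 0, which most of the settings could not bring about in groups without overlap. Dusp12 moves most, to -0.15 with the mean of both probe sets and -0.20 with the week as a covariate.

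Among themselves the 3 genes with lower values did not follow each other closely. After centring each gene on its own mean, the root mean square difference over the 6 arrays was 0.155 between Dusp12 and Nit1, 0.264 between Dusp12 and Dusp23 and 0.349 between Nit1 and Dusp23. Many genes elsewhere came nearer. Among 17427 named genes the nearest to Dusp23 were Postn, which encodes the matrix protein periostin, at 0.057, the centromere protein gene Cenpl at 0.145 and the cytochrome gene Cyp3a44 at 0.169. The nearest to Dusp12 were Mphosph6 at 0.047, Zfp948 at 0.050 and the phosphatase gene Ptp4a1 at 0.066. For Nit1 they were Arhgef33 at 0.030, Klhl12 at 0.030 and Pon3, a paraoxonase gene, at 0.031. For F11r they were the fructose transporter gene Slc2a5 at 0.083, Irx4 at 0.099 and Snhg11 at 0.106. These are likenesses over 6 arrays of 2 groups, and the size of the group difference is part of each. With so many genes compared near matches are plentiful.

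The 4 genes lie within a row of 55 measured genes of chromosome 1, in the order Dusp12, Nit1, F11r and Dusp23. In the RefSeq annotation 1496 annotated genes separate Erbb4, on the same chromosome, from Dusp12. With 10 measured genes added at each end, the row holds 71 other genes. Of these 50 were lower and 21 higher in ErbB4-/- liver (70.4% lower, against 45.3% of all genes), with a median log2 difference of -0.06 against 0.01 for all genes. None passed after adjustment (limma), while 9 had an unadjusted p under 0.05, all lower. That is 12.7% of the 71, against 5.72% of all genes in either direction and 2.94% lower. Lower without overlap were 7 of the 71, or 9.86%, against 3.81%. The one-sided direction did not hold in every setting. Without control replicate 1, whose sex-biased genes stood apart, 4 were higher and 6 lower, or 14.1% against 4.77% of all genes. Without both it and ErbB4-/- replicate 3, 5 were higher and 6 lower, or 15.5% against 5.98%. The count of 9 was 15, 1 of them higher, without ErbB4-/- replicate 1, or 21.1% against 7%. It was 5 without ErbB4-/- replicate 2 (7.04% against 6.09%) and also 5 without control replicate 3 (7.04% against 4.06%). Adjusting for the labelled week left 4 (5.63% against 4.24%).

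Of those 9 genes, 7 belong to a pair of families of immune receptors. The row includes 8 Fc receptor genes, and 4 of them were among the 9: Fcgr3 with a difference of -0.95, Fcgr4 with -1.14, Fcgr2b, which also marks the sinusoidal endothelium, with -1.23 and Fcer1g, the signalling chain of Fc receptors, with -0.67. It also includes 9 genes of the SLAM family of leukocyte surface receptors, a group named after the values were seen. All 9 were lower, with a median of -0.19, and Cd48 at -0.41, Cd84 at -0.59 and Slamf9 at -0.33 were among those with an unadjusted p under 0.05. Without the Fc receptors 5 of 63 genes remained, or 7.94%, against 5.72% of all genes in either direction and 2.94% lower. Of the 63, 68.3% were lower. The markers of macrophages were lower as well, 12 of 12, with a log2 summed level of 12.30 to 12.70 in control and 11.28 to 11.98 in ErbB4-/- liver. Neutrophil markers were lower in 10 of 10, with 8.84 to 11.12 against 8.19 to 8.49. Stellate cell markers, the third list without overlap, were lower in 9 of 10, with 11.99 to 12.24 against 11.24 to 11.86. In whole tissue fewer cells of a type cannot be told apart from less RNA per cell, and the part of these markers in the differences of the 4 genes and of the others along the row was not tested.

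Atf6 and Crp were the remaining 2 of the 9, and each lies directly beside a gene of the 4. Atf6, a membrane-bound transcription factor of the unfolded protein response, precedes Dusp12. It measured 9.22, 9.38 and 9.39 in control and 8.82, 8.86 and 8.92 in ErbB4-/- liver, a difference of -0.47 (SE 0.07) that did not pass (limma, adjusted p = 0.654). Its difference was as large as that of Dusp12, yet control replicate 1 was the highest control for Dusp12 and the lowest for Atf6. Crp, the gene of C-reactive protein, an acute phase protein made by hepatocytes, follows Dusp23. It measured 12.30, 12.12 and 12.18 in control and 11.51, 11.66 and 11.08 in ErbB4-/- liver, a difference of -0.78 (SE 0.16) that did not pass either (limma, adjusted p = 0.760). With the labelled week as a covariate Atf6 went to -0.68, Fcgr3 to -0.75, Crp to -0.37, Fcgr4 to -0.59, Fcgr2b to -0.49 and Cd48 to 0.03. Of these only Atf6 moved further from 0. Atf6 and Crp both lack overlap between the groups, and neither is an Ifi200 or Fc receptor gene. The 4 genes are thus not the whole of that class in the row.

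The other genes next to the 4 had overlapping groups, with differences of -0.27 to 0.35. Beyond Atf6, the neighbours of Dusp12 were Olfml2b with -0.00, Fcrlb with -0.10 and Fcrla with -0.04. Around Nit1, Usp21 and Ufc1 differed by -0.02 and -0.00, and Nectin4, a cell adhesion gene, by -0.02. On either side of F11r, the transcription factor gene Usf1 differed by 0.01, Arhgap30 by -0.11, Alyref2 by -0.27 and Itln1 by -0.08. Next to Dusp23 were Slamf8 with -0.10, Fcrl6 with 0.01 and, after Crp, the pentraxin gene Apcs with 0.35. The differences of Apcs and Alyref2 were larger in size than that of Nit1, with a wider spread between replicates. F11r and Nit1 are thus each flanked by genes with no separation between the groups.

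The highest difference among the 71 others was 0.48, that of Nr1i3, the xenobiotic receptor CAR of hepatocytes, with 10.04 ± 0.42 and 10.52 ± 0.27 and overlapping groups. F11r at 0.60 lay above all of them, but it was picked by a small p-value on the same arrays, so this is no test.

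**Figure D3:**
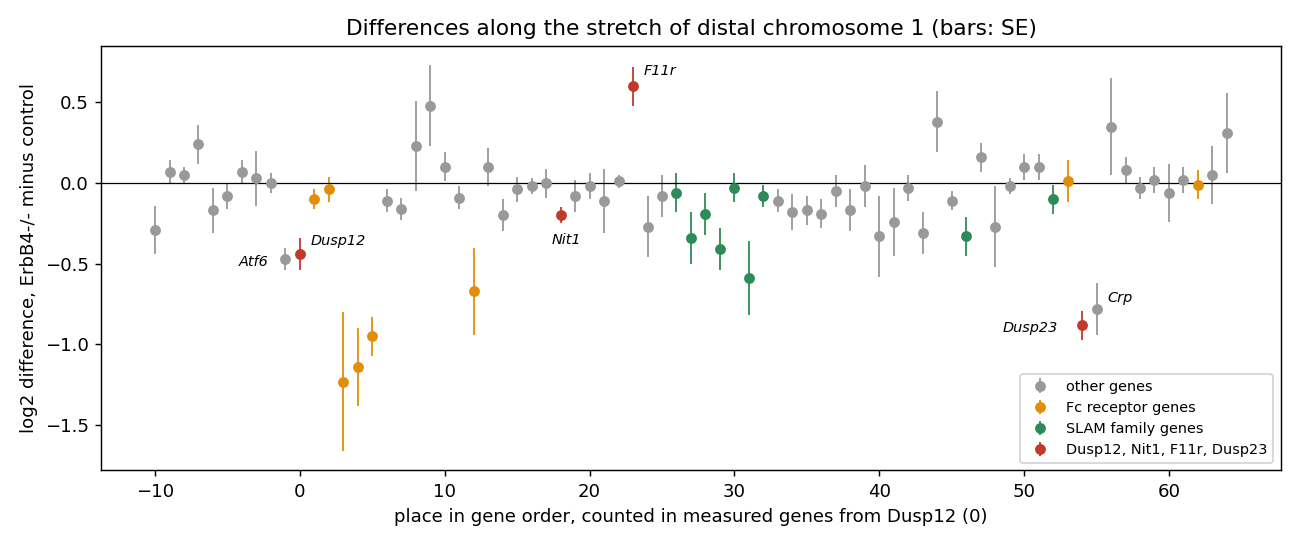
Log2 difference, ErbB4-/- minus control, with its standard error (vertical axis), for the 4 genes and the 71 others of the row in chromosome order, counted in measured genes from Dusp12 (horizontal axis). Dusp23 beside Crp and Dusp12 beside Atf6 form adjacent low points, and F11r at 0.60 is the highest. The 4 genes were picked by small p-values on the same arrays.

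The relatives of Dusp12 and Dusp23 lay on both sides of 0. Of 16 other atypical phosphatases measured, 10 were higher and 6 lower, with a median of 0.07, where 45.3% of all genes were lower. None passed (limma), and 2 had an unadjusted p under 0.05, against 5.72% of all genes in either direction and 2.77% higher. These were Dusp22, a regulator of kinase signalling, with 7.40 ± 0.09 and 7.63 ± 0.08, and Epm2a, the glycogen phosphatase laforin, with 5.37 ± 0.18 and 5.74 ± 0.16, both higher. The lowest difference among the 16 was -0.25, that of Dusp3, and Dusp23 lay below it at -0.88. Dusp12 lay below it at -0.44 with the brighter probe set, but its values of -0.15 with both probe sets and -0.20 with the week did not reach -0.25. Dusp12 and Dusp23 were picked by small p-values on the same arrays, so lying below the 16 is no test. Next by p, Dusp11, which acts on RNA, differed by 0.21, and by 0.13 without ErbB4-/- replicate 1 and 0.35 without ErbB4-/- replicate 2.

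The MAP kinase phosphatases, which shut off ERK, p38 and JNK, were mostly lower. Of 10 measured, 9 were lower, against 45.3% of all genes, with a median of -0.27 against 0.01. None passed (limma), while 3 had an unadjusted p under 0.05, all lower. Over all genes the share was 5.72% in either direction and 2.94% lower. Dusp6 measured 10.16 ± 0.49 and 9.16 ± 0.56, Dusp5 6.39 ± 0.46 and 5.63 ± 0.35, and Dusp8 5.29 ± 0.21 and 4.95 ± 0.13. In each, control replicate 1 was the highest array, and without it the difference of Dusp5 went from -0.77 to -0.51 and that of Dusp8 from -0.34 to -0.22. With the week as a covariate these differences turned sign, to 0.40, 0.27 and 0.16.

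Beside F11r, the genes of tight junctions lay on both sides of 0. Of 26 measured relatives and partners, 16 were higher and 10 lower, where 45.3% of all genes were lower. Their median was 0.03, and none passed (limma). The claudin gene Cldn3, which encodes a sealing protein of the same junctions, was the only 1 of the 26 with an unadjusted p under 0.05. Over all genes 5.72% had such a p in either direction and 2.77% were higher. It measured 8.85, 8.92 and 8.80 in control and 9.39, 9.35 and 9.17 in ErbB4-/- liver, a difference of 0.45 (limma, adjusted p = 0.760). With the week in the fit the difference of Cldn3 was 0.65. Its groups did not overlap, all ErbB4-/- values being the higher ones, as in 4.52% of all genes. Jam2, the junctional adhesion molecule of endothelium, differed by -0.58 and Mpdz, a scaffold of tight junctions, by -0.26, both with overlap, and with the week in the fit by -0.11 and -0.06. Jam3 differed by 0.01, and Ocln and Tjp1, the genes of occludin and its scaffold ZO-1, by -0.10 and -0.06.

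Markers of other cell types that are known to carry F11r are given beside it. Endothelial markers were lower in 10 of 10, with a log2 summed level of 11.92 to 12.40 in control and 10.55 to 11.97 in ErbB4-/- liver. Cholangiocyte markers were higher in 4 of 8 measured and lower in 4, at 8.08 to 8.22 and 8.01 to 8.34. Platelet and megakaryocyte markers were higher in 2 of 6, at 7.69 to 7.91 and 7.61 to 7.73. None of these 3 summed levels was higher in ErbB4-/- liver without overlap. Of the leukocytes, macrophage and neutrophil markers are given above. T and NK cell markers were higher in 2 of 9 measured, and B and plasma cell markers in 2 of 7. The part of any of these cell types in the F11r difference was not tested.

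The relatives of Nit1 lay on both sides of 0. Of 6 others measured, 4 were higher and 2 lower, near the split of all genes, of which 45.3% were lower. Their median was 0.12, none passed (limma), and 1 had an unadjusted p under 0.05, against 5.72% of all genes. That was Vnn1, the pantetheinase vanin of hepatocytes, with 7.74 ± 0.68 and 8.72 ± 0.39, a difference of 0.98 that was 0.60 without control replicate 2. Nit2, the gene of an omega-amidase, differed by -0.03. Upb1, an enzyme of pyrimidine breakdown, differed by 0.17 (0.09 without ErbB4-/- replicate 3) and Fhit, which is fused to the nitrilase in flies and worms, by 0.16. Higher without overlap were 3 of the 6, Vnn1, Upb1 and Nadsyn1, against 4.52% of all genes. Nadsyn1 differed by 0.08. Of 19 genes of glutathione synthesis and turnover, 9 were higher and 10 lower, with a median of -0.03, and none passed or had an unadjusted p under 0.05 (limma). Among these Ggt6 differed by -0.29 and Dpep1 by -0.11, and without ErbB4-/- replicate 3 by -0.18 and -0.06. Kyat3, a transaminase gene, differed by 0.50, with 0.23 without control replicate 2 and 0.76 without ErbB4-/- replicate 2. The counts at an unadjusted p under 0.05 in these 5 lists rested on few arrays. With any 1 array left out they ran from 0 to 3 for the atypical phosphatases, 0 to 4 for the MAP kinase phosphatases and 1 to 4 for the junction genes. They ran from 0 to 2 for the relatives of Nit1 and 0 to 1 for the glutathione genes. The share over all genes in those fits ran from 4.06% to 7%.

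**Figure D4:**
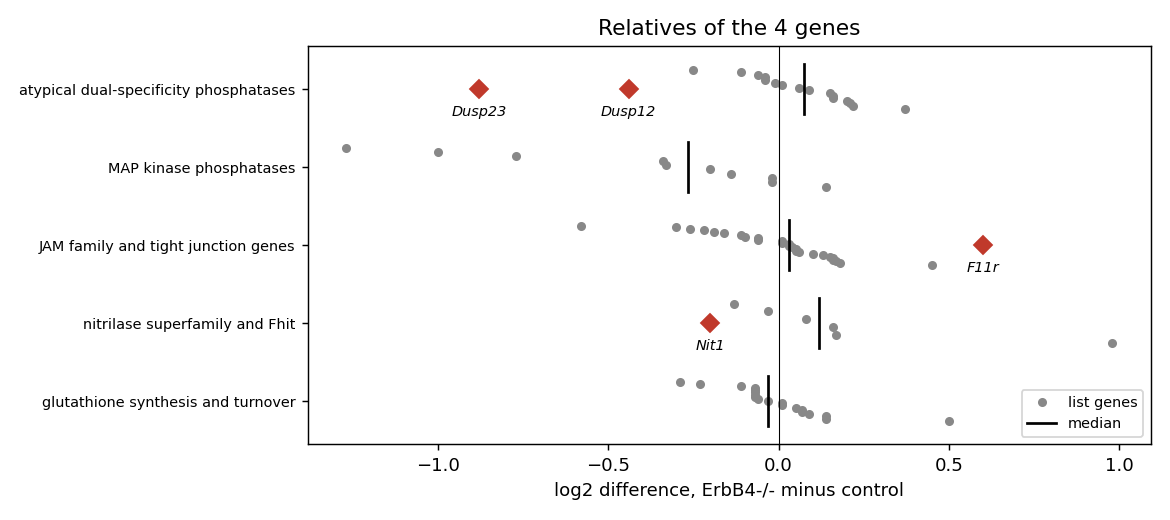
Log2 difference, ErbB4-/- minus control (horizontal axis), for the genes of 5 lists of relatives (grey points, with the median as a bar) and for the 4 genes (red diamonds). The 4 genes were picked by small p-values on the same arrays. As reported, Dusp23 at -0.88 and Dusp12 at -0.44 lie to the left of the 16 other atypical phosphatases, which Dusp12 would not at its -0.15 with both probe sets or -0.20 with the week, and F11r lies to the right of the 26 other junction genes.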

How the data were processed

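Liver RNA of 6 mice was read on 6 whole-transcript arrays. The deposited values are log2 signals, processed by the authors. The log base was inferred from their maximum of 14.4, and the background correction and normalization are not given in the sources used here. No background signal was used, so low values may be background.

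Of 41345 probe sets, 23521 have 1 gene symbol in the platform annotation, 1814 have several and 16010 are unnamed here. The brightest probe set per gene left 22180 genes, of which 21994 matched RefSeq (GRCm38.p6) by identifier, used for gene order. Differences, ErbB4-/- minus control, and standard errors come from a linear model with moderated errors (limma 3.58.1, run in R 4.3.3). Its p-values are two-sided, with Benjamini-Hochberg adjustment over all genes at 0.05. The fit was also run on simulated data with independent noise for each gene. Those data lack the repeated values and the outlying arrays seen here, so the run does not bear on these. A summed level is the log2 of summed linear signals. The named genes were the 4 genes, their 3 nearest profiles each, 2 genes on each side, up to 6 neighbours with unadjusted p under 0.05 and the 3 smallest p per list. Fcer1g, Cd84, Slamf9, Nr1i3, Jam3, Ocln, Tjp1, Nit2, Nadsyn1 and Dusp3 were added after their values were seen. The members, lists and alternatives were all chosen with earlier results of these data known. The design text calls the mice biological replicates. Figures were drawn with matplotlib 3.10.9.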

Additional observations from a re-analysis of the deposited data

How the results depend on the processing

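Alternatives covered normalization, centring, dim genes, probe sets, priors, array weights, the week, left-out arrays and the length of the row. The 4 differences moved by more than their replicate SD in 4 of 64 cases, some of which leave the differences unchanged by construction. The first was Dusp12 at -0.15 with the mean of both probe sets. The others, with the week as a covariate, were Dusp12 at -0.20, Nit1 at -0.13 and Dusp23 at -0.75. The count of 9 of 71 neighbours with an unadjusted p under 0.05 became 4 of 71 with the week, against 4.24% of all genes. It was 16 of 101 with 25 genes beyond each end and 5 of 63 without the Fc receptor genes, against 5.72%. At an unadjusted p under 0.01 it was 4 of 71, and the share over all genes was not taken at that threshold. Leaving out 1 array gave between 5 and 15, with 15 without ErbB4-/- replicate 1 and 5 without ErbB4-/- replicate 2 or without control replicate 3. The share over all genes then ran from 4.06% to 7%. No neighbour and no list gene passed the adjusted threshold in any setting run. The 1 gene that passed among all genes was lost when every probe set was tested, with the block, with the week and without any 1 array. With the week, Cd48 turned to 0.03, Dusp6 to 0.40, Dusp5 to 0.27 and Dusp8 to 0.16, and these 4 were the only reversals among the other named genes. The week also brought Dusp22 from 0.22 to 0.12, Upb1 from 0.17 to 0.06 and Dpep1 from -0.11 to -0.01. Some differences grew with the week, with Atf6 going from -0.47 to -0.68, Cldn3 from 0.45 to 0.65 and Erbb4 from -0.28 to -0.93. The cause of these changes was not tested. Dusp8 and Dpep1 have no value among genes at or above the median level. With the replicate block the count was 8 and the 4 differences were the same. Same-numbered mice had correlations of deviations of -0.10, 0.03 and -0.05, and differently numbered ones -0.08 to 0.10. These values showed no pairing by number, but so few mice cannot settle it. The number of arrays limits the precision.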

Other observations

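Many genes have exactly the same deposited value, to the last digit, on several arrays. This was so on at least 2 of the 6 arrays for 57.5% of all genes and for 53.5% of the 71 neighbours of Dusp12, Nit1, F11r and Dusp23. On 4 or more arrays it was so for 12.5% of all genes and for 8.45% of the neighbours. None of the 4 genes has such a repeat in the probe set used, whereas the second probe set of Dusp12 repeats 4.74 on 4 arrays. A repeat within a group lowers its spread, and the part of repeats in the standard errors was not tested.

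Beyond the row of 71, with 25 measured genes at each end, Ifi200 genes enter and 16 of 101 genes had an unadjusted p under 0.05, of which 14 were lower and 2 higher. Without Ifi200 and Fc receptor genes these were 6 of 82, with 5 lower and 1 higher. Of all genes 5.72% had such a p, 2.94% lower and 2.77% higher.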
